A study of Mus musculus with 10 samples.

Results

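The 350 kb around Wnt4 on mouse chromosome 4, chr4:136600000-136950000 of the mm9 build, held 12 ChIP-seq peaks for the nephron regulators Six2 and β-catenin. Its members are every peak of 4 deposited peak lists that overlaps this stretch, which was proposed with its peaks known. The 12 peaks fell on 6 sites, of 7666 sites in the 4 lists together, where peaks of any list that share at least 1 bp form a site. All the cells were nephron progenitors, the mesenchymal cells that build the kidney tubules, sorted at E16.5 (the embryonic day) from mice of mixed background that carry the Six2GFPcre transgene on a bacterial artificial chromosome. The 2 Six2 libraries came from fresh cells. The 2 β-catenin libraries came from cells spun into aggregates and kept for 24 h in medium with 10% serum and BIO at 4 µM. BIO blocks GSK3, the kinase that marks β-catenin for destruction. Antibody and culture therefore changed together, and their parts in any difference between the lists cannot be told apart. The sort rests on the transgene, and the files hold no expression values with which to check the cell type.

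Wnt4 encodes a secreted signalling protein of the Wnt family. In the developing kidney it is switched on when progenitors commit, and it is required for the mesenchyme to turn into the epithelium of the renal vesicle. The signal upstream of it, Wnt9b from the ureteric bud, acts through canonical Wnt signalling, in which stabilised β-catenin enters the nucleus and joins TCF/LEF proteins on DNA. Six2 is a homeodomain protein that keeps the same cells in the progenitor state. The question for this locus is where the factor that maintains progenitors and the co-activator that commits them lie relative to a gene of commitment.

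The lists give positions only. Their order served as a rank, because peaks in early rows were more often found again by the second library made with that antibody. For β-catenin replicate 1 the share found again was 85.1% in the first decile of rows and 17.6% in the fifth. The fall was smaller for Six2 replicate 2, from 98.2% in the first decile to 83.3% in the fifth and 74.7% in the last. Recovery thus gives less ground for reading the rows of that list as a rank. Rows are also given as a percent of the list, since the lists hold 5645 and 1622 peaks for Six2 replicates 1 and 2, and 1873 and 1208 for β-catenin replicates 1 and 2. The start of Wnt4 was taken as 136.833 Mb and its end as 136.856 Mb, as given when the region was set. Distances are therefore good to about 1 kb, and no mm9 gene annotation was used here.

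All 6 sites lay on the same side of Wnt4, at lower coordinates. RefSeq's table for the GRCm38 build gives Wnt4 the plus strand, so this side is upstream. The stretch reaches farther on the upstream side than on the other and was set with its peaks known, which limits what this one-sidedness means. Outside it, a β-catenin site lay 203 kb and a Six2 site 453 kb beyond the Wnt4 start on the other side. From far to near, site A was 228 kb from the Wnt4 start, B 204 kb, C 149 kb, D 141 kb, E 64 kb and F 60 kb. No peak of any list lay between site F and the far end of the neighbourhood, a stretch of 177 kb that takes in the Wnt4 promoter, the whole gene and the sequence after it. An empty stretch is common in these lists: 50.2% of 7245 windows of 350 kb, tiled over all chromosomes, held no peak of any list. In the gene order of the GRCm38 table, the next protein-coding gene on the upstream side is Zbtb40, a zinc-finger gene, and on the other side Cdc42. Between Zbtb40 and Wnt4 that table has 6 long noncoding RNA genes and 1 pseudogene. Positions were not carried between builds, so it is not stated which site falls in which of these genes.

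**Figure D1:**
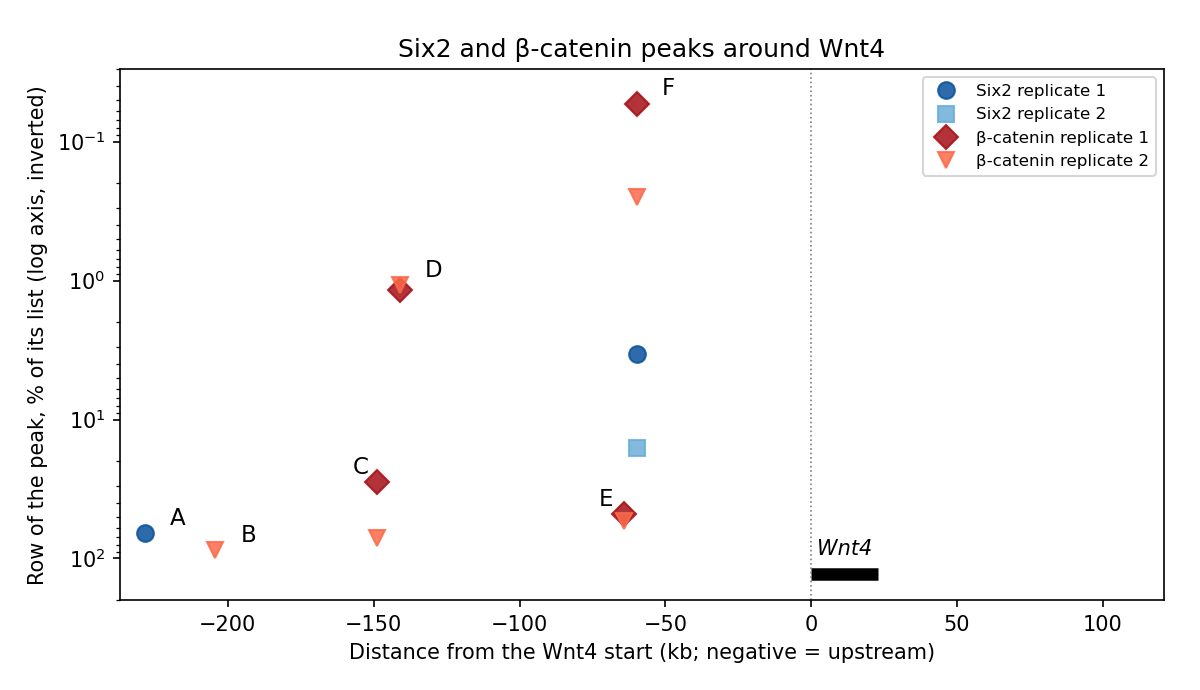
Each point is a peak of 1 library. The horizontal axis is the distance of its midpoint from the Wnt4 start in kb, and the vertical axis its row as a percent of its list, on an inverted log axis so that early rows are at the top. Sites F and D hold the β-catenin peaks of the earliest rows, and all 12 peaks are on the upstream side, where the stretch reaches farther.

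Site F, at chr4:136773188-136773353, was the only one of the 6 with peaks of both antibodies, and it had a peak in all 4 lists. In the β-catenin lists it was row 1 of replicate 1 and row 3 of replicate 2, which is 0.0534% and 0.248% of those lists. In the Six2 lists it was row 192 of replicate 1 and row 259 of replicate 2, or 3.40% and 15.97%. Both β-catenin libraries thus had it among their very first peaks. The Six2 libraries had it in their first decile and their second decile.

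The sites in all 4 lists numbered 126 in the whole genome, and site F was place 1 among them by the mean percent of list for β-catenin, 0.151%. Their median was 31.1%. By the mean percent for Six2, 9.68%, it was place 39, with a median of 18.1% over those sites. Site F was therefore far earlier for β-catenin than for Six2. The Six2 percent was 64.2 times the β-catenin percent, against a median ratio of 0.668 over the 126 sites, and 2 of them, site F included, had a ratio this high. The size of the ratio is loose, because it divides by rows at the very top of the β-catenin lists. Leaving out 1 library at a time, it was 22.5 without Six2 replicate 2, 106 without Six2 replicate 1, 39.0 without β-catenin replicate 1 and 181 without β-catenin replicate 2, and 1 to 3 of the 126 sites had one as high. Taking the 4 lists together, site F was place 6 by mean percent of list, 4.92%, and place 10 by mean row number. Six2 replicate 2 carried most of that mean. Without it the mean was 1.23% and the place 1, and without another library the place was 6 to 18.

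**Figure D2:**
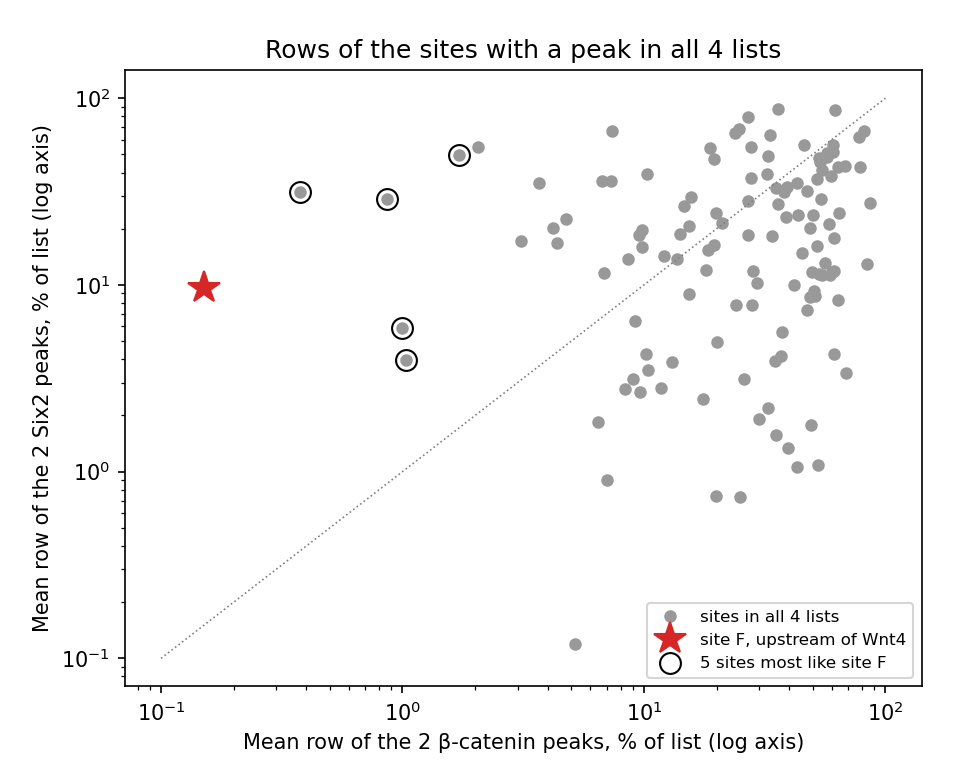
Each point is a site with a peak in all 4 lists. The axes are log axes of the mean row as a percent of list, for β-catenin (horizontal) and Six2 (vertical), and the dotted line marks equal percents. The star, site F, is the leftmost point, at 0.151% for β-catenin and 9.68% for Six2, and the 5 ringed sites are the most like it.

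The 4 peaks at site F were nearly superimposed. Six2 replicate 1 covered 136773199 to 136773353 (155 bp) and Six2 replicate 2 covered 136773188 to 136773348 (161 bp). β-catenin replicate 1 covered 136773206 to 136773330 (125 bp) and replicate 2 covered 136773190 to 136773332 (143 bp). The 125 bp common to all 4 were the whole of the β-catenin replicate 1 peak. The 4 midpoints lay within 15 bp. Among the 122 sites of this kind with exactly 1 peak per list, the median spread of midpoints was 86.75 bp, and 2 sites, site F included, had a spread of 15 bp or less. Between antibodies, the midpoints at site F were 0 to 15 bp apart. Over all overlapping pairs of peaks, the median offset ran from 39.5 to 55.5 bp for the 4 pairings of a Six2 with a β-catenin library.

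The sites elsewhere with rows most like those of site F were picked by their rows in the same 4 lists, so their order is a description. Likeness was the distance in log10 of row over list length over the 4 lists. The nearest was chr2:172667934-172668149, with β-catenin rows 9 and 15 and Six2 rows 197 and 877, at a distance of 1.30. It was followed by chr3:67513329-67513519, with β-catenin rows 11 and 2 and Six2 rows 983 and 732, at 1.35. The others were chr13:94853202-94853454 at 1.48, chr1:92194328-92194580 at 1.52 and chr2:174487025-174487573 at 1.93. Since 1 unit of this distance is a 10-fold change of row in 1 list, none of them was a close match by this measure. The measure is sensitive at the top of a list. Site F was row 1 and row 3 for β-catenin, where a few rows make a large distance. In Six2 replicate 1, site F was row 192, against row 197 for the nearest site.

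Site D, at chr4:136691825-136691992 and 141 kb upstream, was a β-catenin site with no Six2 peak on it. It was row 22 in replicate 1 and row 13 in replicate 2, which is 1.17% and 1.08% of the lists. The peaks were 168 and 159 bp wide, and their midpoints differed by 1.5 bp, against a median of 30.0 bp over all overlapping pairs of the β-catenin libraries. By mean percent of list, site D was place 13 of the 555 sites with peaks of both β-catenin libraries, and site F was place 2. Among the 291 of those with no Six2 peak, site D was place 5. The nearest Six2 peak to site D was 81.2 kb away, at site F. For the 291 sites without Six2, the median distance to a Six2 peak was 58.3 kb, with a middle range (quartiles) of 18.6 to 155.6 kb.

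Sites C and E stood later in both β-catenin lists, and neither carried a Six2 peak. Site C, at chr4:136684167-136684269, was row 526 in replicate 1 and row 862 in replicate 2, or 28.1% and 71.4% of the lists. Its peaks were narrow, 101 and 73 bp, and overlapped over 71 bp. Site C lay 7.7 kb from site D, midpoint to midpoint. Site E, at chr4:136768724-136768925, was row 897 in replicate 1 and row 652 in replicate 2, or 47.9% and 53.97%. Of the 4 sites in both libraries, this was the one with the largest offset between them. The peaks were 68 and 159 bp wide, overlapped by only 25 bp, and had midpoints 88.5 bp apart. Site E was 4.4 kb from site F, and the nearest Six2 peak was 4.3 kb away, also at site F. Of the 554 sites of both β-catenin libraries with another on the same chromosome, 30 (5.42%) had one within this distance, and the median distance to the nearest was 0.74 Mb.

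**Figure D3:**
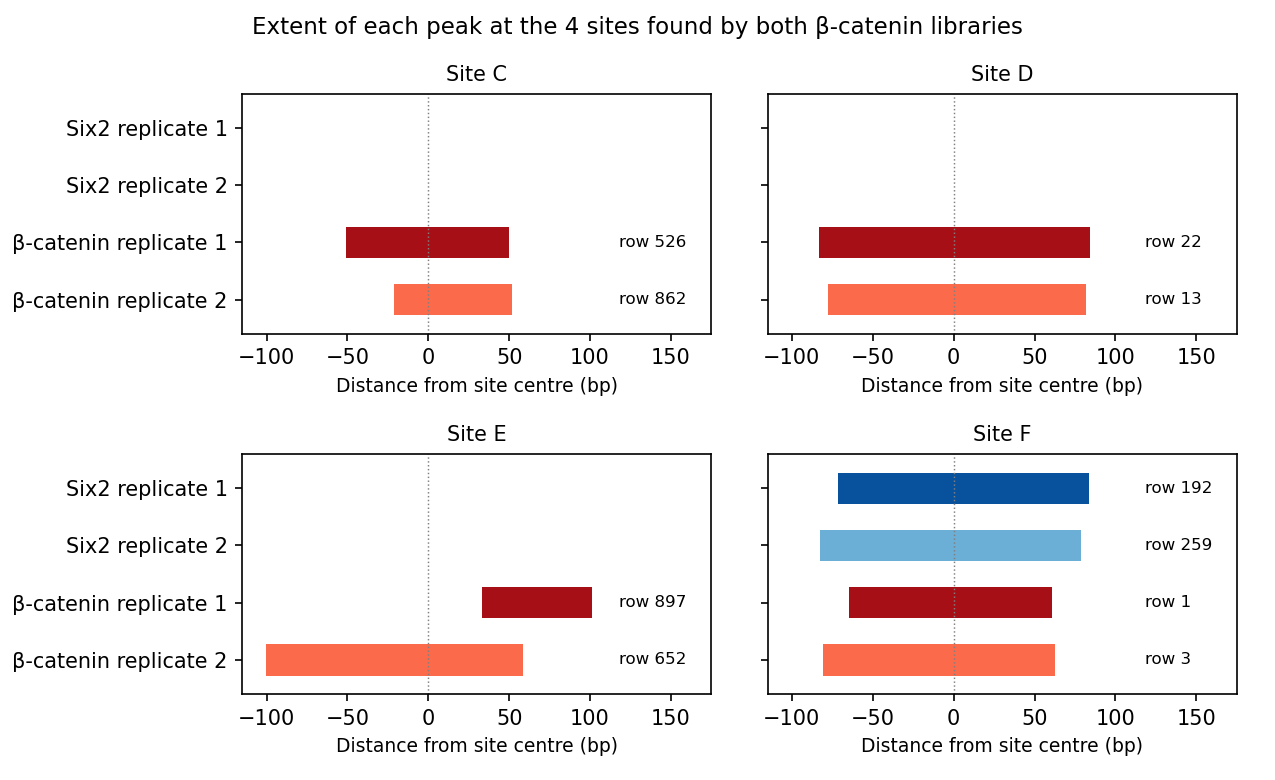
Each bar is the extent of a peak in bp from the centre of its site, by library, with its row number beside it. At site F the 4 bars lie over one another, at site D both β-catenin bars do, and at site E they share 25 bp at their ends.

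Sites A and B were each seen in 1 library. Site A, at chr4:136604567-136604708, was row 3718 of Six2 replicate 1 (65.9% of the list), and site B, at chr4:136628637-136628772, was row 1049 of β-catenin replicate 2 (86.8%). Both were late in lists whose late peaks were seldom found again. Peaks of the same decile as site A were found in the other Six2 library in 66 of 565 cases (11.7%), and those of the decile of site B in 31 of 121 (25.6%). Site A was also the member nearest to the edge of the stretch, 4.6 kb inside it. Just outside the same edge, 16.1 kb beyond it, was another late peak of Six2 replicate 1, row 5574. The first peak beyond the other edge was 85.7 kb outside it, at row 1646 of β-catenin replicate 1.

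Most of the β-catenin sites near Wnt4 were in both libraries. Of the 5 sites in the neighbourhood with a β-catenin peak, 4 (80.0%, 95% exact interval 28.4 to 99.5%) had peaks of both libraries, while over all β-catenin sites the share was 22.0% (555 of 2521). The interval treats sites as independent and covers counting error only. The stretch was set with its peaks known and its sites lie close together, so the interval is no test against that share. Site E counts only through an overlap of 25 bp. When peaks had to overlap by 50% of each, it split and the sites of both libraries numbered 3. Sites D and F belonged to the first decile of both lists, where 85.1% of replicate 1 peaks and 90.9% of replicate 2 peaks were found again. Sites C and E did not. In replicate 1 the deciles of C and E had 41.2% and 17.6% found again, and in replicate 2 they had 23.1% and 30.6%. For Six2, 1 of the 2 sites had both libraries, against 22.8% of all Six2 sites, a count too small to compare.

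**Figure D4:**
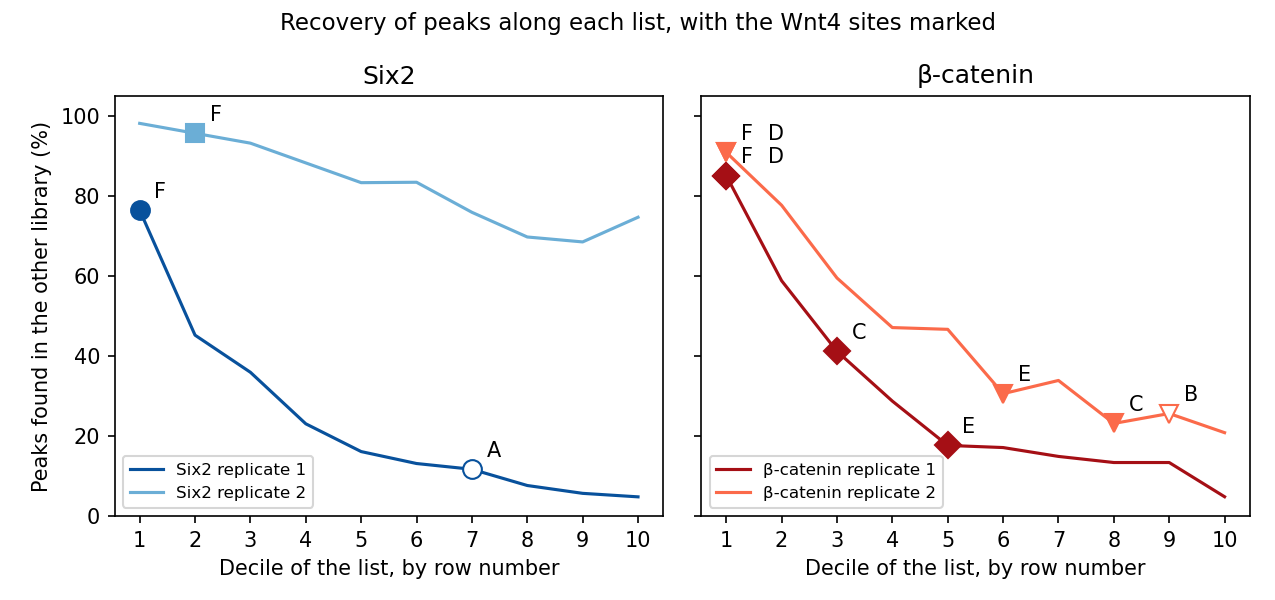
Lines give, by decile of each list, the percent of its peaks that the second library of that antibody also had. Symbols mark the decile of each peak near Wnt4, filled where that peak itself was found again and open where it was not (A and B). Sites F and D are in the first decile of both β-catenin lists, and C and E sit where 17.6 to 41.2% of peaks were found again.

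For sharing between the antibodies, the 6 sites were too few to set against the lists as a whole. Of the 6 sites, 1 (16.7%, 95% exact interval 0.421 to 64.1%) had peaks of both antibodies, and over all 7666 sites the share was 9.99%. Of the 4 sites with both β-catenin libraries, 1 (25%, 0.631 to 80.6%) had a Six2 peak, against 47.6% of the 555 such sites. Both intervals are so wide that they would include most shares. They are no test, and these counts show neither likeness to the lists nor a difference from them. Among the 20 leading sites of both β-catenin libraries, a number chosen after the values were seen, 13 had a Six2 peak and 6 had peaks of both Six2 libraries. Site F is 1 of those 6, and site D is 1 of the 7 without. Of all 555 sites of both β-catenin libraries, 264 had a Six2 peak and 126 had peaks of both Six2 libraries.

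The neighbourhood held more peaks of both antibodies than an average window, and for β-catenin such a count was rarer than for Six2. It held 9 β-catenin peaks, 4 of replicate 1 and 5 of replicate 2. They lay on 5 sites, of which the 4 in both libraries were counted for each library. When all chromosomes were divided into 7245 windows of the same length, a window held 0.425 β-catenin peaks on average and 0.0966% of windows held 9 or more. It held 3 Six2 peaks, 2 of replicate 1 and 1 of replicate 2. A window held 1.003 Six2 peaks on average and 13.7% held 3 or more. These windows stood on a fixed grid, whereas the stretch around Wnt4 was set with its peaks known. The grid divides that stretch, with 5 of its β-catenin peaks in 1 window and 4 in the next. The share of windows with counts like these was not computed.

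Counted without a grid, sites C to F formed the shortest run of 4 consecutive sites with both β-catenin libraries. They spanned 89.2 kb, from 136684167 to 136773353. There were 497 such runs on all chromosomes, which overlap each other, with a median span of 8.3 Mb. Only 10 of them (2.01%) were shorter than the 350 kb of the neighbourhood, and the next was on chromosome 14, at 99.6 kb. Runs of 4 were chosen because the stretch, set with its peaks known, holds 4 such sites. The comparison was tried after seeing the data, so the place of sites C to F is a description and no independent support. The run is made of a close pair at each end, C with D and E with F, with 76.9 kb between sites D and E. Its first place rests on site E, with its 25 bp of overlap. When peaks had to overlap by 50% of each, site E split into 2 sites of 1 library, and sites C, D and F were place 2 of 302 runs of 3 sites. Replicate 2 alone placed its 4 peaks at C to F as number 3 of 1148 runs, and replicate 1 alone as number 166 of 1813. In replicate 1 most shorter runs were in 1 dense window of chromosome 2, without which the place was 23 of 1667.

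**Figure D5:**
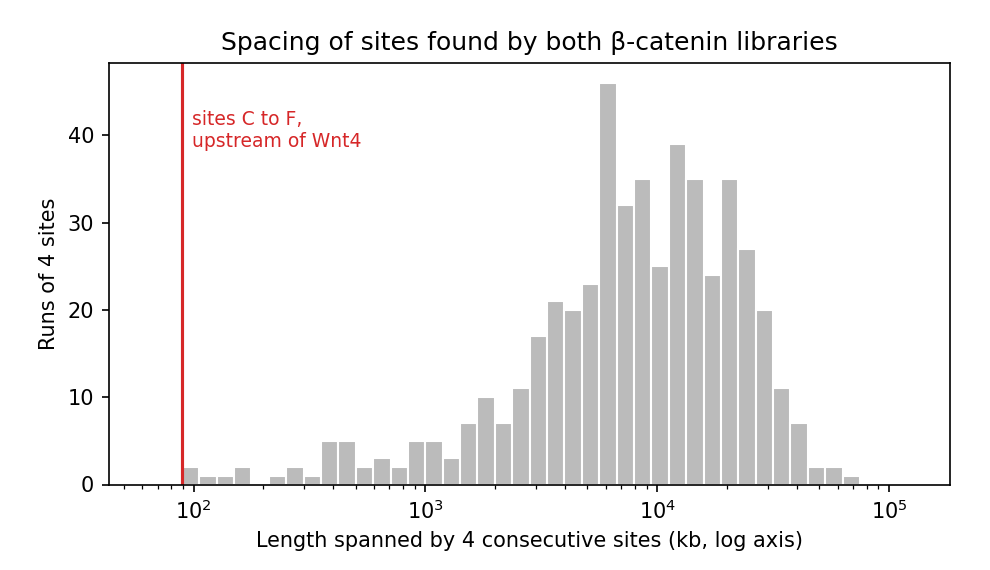
The bars count runs of 4 consecutive sites found by both β-catenin libraries, by the length they span in kb on a log axis. The vertical line marks sites C to F at 89.2 kb, at the left end of the 497 runs.

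The Wnt4 promoter carried no peak in any list. Its sequence is shown because it is the place at the gene where a proximal site would lie. The 250 bases before the RefSeq start (GRCm38.p6, plus strand) read, 5′ to 3′:

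Wnt4 promoter: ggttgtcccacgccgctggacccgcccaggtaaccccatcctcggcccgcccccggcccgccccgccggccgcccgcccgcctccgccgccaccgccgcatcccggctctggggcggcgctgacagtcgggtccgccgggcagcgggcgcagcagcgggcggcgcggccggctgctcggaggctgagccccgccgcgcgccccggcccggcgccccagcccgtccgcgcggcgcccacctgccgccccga

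Capitals would mark matches, on either strand, to CTTTGAT (a TCF/LEF motif), its shorter form CTTTG, TCANGTTTC (a motif of Six2 and its relatives, with N for any base) or GGTTTC, a shorter form that overlaps it. There are none. Of the 32851 RefSeq promoters of this length, 3.21% hold CTTTGAT, 48.6% CTTTG, 0.989% TCANGTTTC and 13.4% GGTTTC. The Wnt4 promoter is 85.2% G and C, against a median of 52.4%, and has 44 CpG dinucleotides, against a median of 6. The absence of a match says only that these letters are not in this window. The sequence of the distal sites was not used here, since no mm9 genome was at hand.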

How the data were processed

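Chromatin immunoprecipitation followed by sequencing was deposited for 10 samples, and the 4 peak lists of the Six2 and β-catenin libraries were used. The 4 input and 2 IgG samples were not analysed here. The authors deposited each list as 3 columns of coordinates (chromosome, start, end) with no score, p-value or read count, so the depth behind a peak is unknown. Build mm9 and CASAVA 1.6 are named in the submitters' processing notes. For the peak caller, its threshold and its control, nothing is given in the sources used here. Places that give signal in any library were therefore not separated from binding.

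Replicate numbers follow accession order and pair nothing, and the labels do not say whether they came from separate sorts. Starts were made 1-based. Peaks of the 4 lists sharing at least 1 bp were joined into sites. A peak was found again when it overlapped a peak of the other library by 1 bp or more. Sites joined through a Six2 peak count as having both β-catenin libraries. The rule for naming took every site, and the 5 sites most like the leading one. Intervals are 95% exact (Clopper-Pearson). With 2 libraries per antibody no test across libraries was run. The members and the choice of comparisons were made with earlier results of these data known. Alternatives were overlap of 50% of both peaks, midpoints at most 500 bp apart, lists cut to their first or widest 50%, each library left out, a wider stretch, shifted windows and another anchor. Joining was tested on simulated lists. Computations used Python 3.11.15, pandas 2.3.3, numpy 2.4.6 and scipy 1.17.1.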

Additional observations from a re-analysis of the deposited data

How the results depend on the processing

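Of the recomputed values, 43 counted as unchanged, within 1.5 times the main value (for shares, within its 95% exact interval), and 17 as moved. The 17 include the distance of site F measured to the Wnt4 end, although 83 kb is within 1.5 times 60 kb. Site F kept both antibodies in every setting that still compares them: the number of shared sites was 1 throughout, also in the wider stretch. With an early peak in all 4 lists, it could not be lost by leaving out 1 library or keeping the first 50% of rows. Other unchanged counts were fixed too, such as sites of both β-catenin libraries when a Six2 library was left out. The intervals for shares are wide, so few values could leave them. The stretch held 12 peaks, and 6 with the widest 50% of each list. Widened by its own length on each side it held 11 sites in place of 6. Sites of both β-catenin libraries numbered 4, and 2 (D and F) with the first 50% of each list. Where all peaks of the remaining library stand for the antibody, Six2 sites numbered 1 or 2. Measured to the Wnt4 end, site F was 83 kb away instead of 60 kb. The mean row of site F was 113.75, and the mean of its 4 percents of list was 4.92%. Without 1 library this mean was 1.23 to 6.54%, the lowest without Six2 replicate 2, and it was 0.151% in the β-catenin lists and 9.68% in the Six2 lists. The ratio of these percents, 64.2, ranged from 22.5 to 181 without 1 library. The place of the C to F run by length, tried after seeing the data, was 1, and 2 with a reciprocal overlap of 50% (runs of 3 sites), 3 in the list of β-catenin replicate 2 alone, 166 in that of replicate 1 alone, and 23 in the latter outside its densest window. No paired analysis was possible because the labels give no replicate numbers and no test was made. Depth is unknown, so an absent peak, as at the Wnt4 promoter, is a statement about these lists and not about binding.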

Other observations

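When the stretch was widened to chr4:136250000-137300000, it gained 5 sites, and none had both antibodies. Of these, 4 were Six2 sites and 1 was a β-catenin site. Only the Six2 site at chr4:136339823-136340088, 493 kb from the Wnt4 start, had both Six2 libraries, at rows 1548 and 1504. The other Six2 sites were rows 4729, 5574 and 2212 of replicate 1, and the β-catenin site, 203 kb beyond the Wnt4 start, was row 1646 of replicate 1. In β-catenin replicate 2 the nearest peaks outside the 350 kb were 1984 kb from the Wnt4 start on the upstream side and 2582 kb on the other. That list is sparse, with 96 peaks on all of chromosome 4. Its usual spacing was not computed, so these gaps do not show that its 5 peaks upstream of Wnt4 are set apart.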
